A study of Mus musculus with 4 samples.

Results

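Mll4SI and control bone marrow were compared over all Kit+ cells that passed a quality filter, by the summed RNA counts of every autosomal gene. The filter asked for 500 or more genes, 1000 or more gene UMIs (unique molecular identifiers, each marking 1 captured RNA molecule) and no more than 10% of UMIs from mitochondrial genes. This left 18339 of the 34122 cells of the series, 7152 from the control library and 11187 from the Mll4SI library. Both libraries held donor-type (CD45.2+) Kit+ marrow cells taken 10 weeks after a transplant and stained with barcoded antibodies, so that RNA and 13 surface proteins were counted in the same cells. The group names are the labels' own: SI is not spelled out, and promoter, Cre line, sex, number of animals and batch are not given. Libraries named Mll3SI (8617 cells) and Mll3/4SI (7166 cells) were made in the same way and are used here for values set side by side.

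MLL3 and MLL4, encoded by Kmt2c and Kmt2d, are large histone methyltransferases that place a single methyl group on lysine 4 of histone H3, mostly at enhancers, and also act there as scaffolds for other regulators. Kit is the receptor for stem cell factor, carried by blood stem cells and by progenitors until they mature. Neutrophil precursors make their granule proteins in sequence: primary granule proteases and myeloperoxidase first, then lactoferrin and cathelicidin of the secondary granules, then the gelatinase and collagenase of the last granules, by which time most Kit is normally lost.

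With 1 library in each group no test was possible, and no difference below has a replicate check. Intervals in brackets are exact and at 95%, and cover counting error only. The kept cells carried 138592699 gene UMIs in control and 176828907 in Mll4SI, with medians of 17284.5 and 13516 UMIs per cell. The libraries differed in sex-linked transcripts: Xist, made by the inactive X chromosome, was at 0.0289 CPM (UMIs per 1000000 gene UMIs) in control and 1133 CPM in Mll4SI, and the Y-linked Eif2s3y at 63.2 CPM and 0 UMIs. Mll3SI (0.215 CPM of Xist) and Mll3/4SI (1349 CPM) were split in the same manner, so the label Mll4SI and the sex-linked difference cannot be told apart in either pair. The sort was checked on Kit itself, whose RNA stood at 111 CPM in the control library and 100.1 CPM in the Mll4SI library. Of all gene UMIs, 22 late granule genes took 14.95% in control, 12.9% in Mll3SI, 17.3% in Mll3/4SI and 21.8% in Mll4SI. Cytosolic ribosomal protein genes took 14.6% and 10.9% in control and Mll4SI. In sums over all cells, fewer cells of a type and less RNA of a gene per cell cannot be told apart.

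The comparison turns most on Epha5 and Adgrl3, receptors almost absent from control, and on Mmp8 and Retnlg, neutrophil genes of late maturation. Their promoters are shown because all 4 genes stood higher together in the Mll4SI library. Each is 250 bases before to 50 bases after the start of the gene, read 5′ to 3′ on the strand of the gene, from RefSeq on GRCm38.p6. The Epha5 window is chr5:84417333-84417632 on the minus strand. On the plus strand lie those of Adgrl3 (chr5:81020321-81020620, the first of 3 entries for that gene), Mmp8 (chr9:7558179-7558478) and Retnlg (chr16:48872358-48872657). Capitals mark matches, on either strand, to 3 short motifs of blood cell factors: TTGCNNAA for C/EBP proteins, GAGGAAG for PU.1 and AGATAA for GATA factors.
Epha5: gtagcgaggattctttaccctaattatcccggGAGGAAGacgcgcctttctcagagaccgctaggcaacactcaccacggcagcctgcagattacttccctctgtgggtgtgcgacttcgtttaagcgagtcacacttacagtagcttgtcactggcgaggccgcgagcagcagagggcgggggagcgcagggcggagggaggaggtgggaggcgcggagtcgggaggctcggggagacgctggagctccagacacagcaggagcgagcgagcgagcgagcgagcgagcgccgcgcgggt
Adgrl3: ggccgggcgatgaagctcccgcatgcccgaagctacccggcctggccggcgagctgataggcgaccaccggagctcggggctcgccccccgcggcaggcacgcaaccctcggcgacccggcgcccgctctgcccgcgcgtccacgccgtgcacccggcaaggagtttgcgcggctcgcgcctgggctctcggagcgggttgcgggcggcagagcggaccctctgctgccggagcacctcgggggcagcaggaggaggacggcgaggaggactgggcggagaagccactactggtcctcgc
Mmp8: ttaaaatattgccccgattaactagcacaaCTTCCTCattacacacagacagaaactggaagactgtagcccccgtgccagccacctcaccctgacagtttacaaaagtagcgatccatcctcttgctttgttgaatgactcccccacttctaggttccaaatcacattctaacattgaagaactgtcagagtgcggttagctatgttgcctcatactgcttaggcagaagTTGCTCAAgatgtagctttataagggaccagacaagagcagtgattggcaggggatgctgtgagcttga
Retnlg: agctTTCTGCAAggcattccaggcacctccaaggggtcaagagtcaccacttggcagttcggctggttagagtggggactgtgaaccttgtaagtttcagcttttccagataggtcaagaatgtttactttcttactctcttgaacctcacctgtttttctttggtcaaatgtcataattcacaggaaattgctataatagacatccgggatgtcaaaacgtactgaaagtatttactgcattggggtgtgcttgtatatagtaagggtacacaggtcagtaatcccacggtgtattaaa

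Epha5 held the PU.1 letters at positions 33 to 39 and Adgrl3 held none of the 3 motifs. Mmp8 held the PU.1 letters at 31 to 37 and the C/EBP letters at 232 to 239, and Retnlg held C/EBP letters at 5 to 12. Among all 27025 RefSeq promoters of this length, 10.8% held the C/EBP letters, 13.5% the PU.1 letters and 11.4% the GATA letters. The tested genes of this comparison held them in 8.38%, 13.6% and 6.27% of 9118 matched promoters. Genes at least 2-fold higher in Mll4SI, of which 81 of 117 matched, held them in 18.5% (15 promoters), 24.7% (20) and 9.88% (8). Genes at least 2-fold lower, of which 129 of 175 matched, held them in 14.0% (18), 19.4% (25) and 11.6% (15). Both sets thus lay above the tested genes for all 3 motifs, in numbers of promoters too small to be read further. A match of letters is a description and not a site of binding.

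Over all kept cells, 11804 autosomal genes had a mean of at least 1 CPM in the 2 libraries. Changes are given as log2 ratios of Mll4SI over control with 1 CPM added to both, which understates the change of low genes. The intervals are of the ratio without the added 1, so for low genes they lie beyond the printed ratio. A gene is counted as higher or lower where this ratio reached 1, that is a 2-fold difference. By this rule 117 genes (0.991%) were higher and 175 (1.48%) lower, and under median-of-ratios scaling 156 were higher and 125 lower. The median of all tested genes was -0.13, and 30.9% stood above 0. The line at 2-fold cuts through a continuous spread: Ifitm6 (1.00357) lay just above it and Sugct (0.996327) just below, and on the lower side Pbx4 (-1.00079) and Ndst1 (-0.99986) were the nearest.

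The 12 highest genes of at least 10 CPM on average are described in 2 groups, set by what the genes are known for after their values were seen and not by a list. Surface receptors and other proteins better known from nerve, vessel and connective tissue come first. Epha5 (ENSMUSG00000029245), a receptor tyrosine kinase for ephrins, had 21 UMIs in control and 5065 in Mll4SI. Its levels were 0.15 CPM in control, 0.17 in Mll3SI, 10.6 in Mll3/4SI and 28.6 in Mll4SI, so both libraries with Mll4 in their name stood above both without it. The log2 ratio of Mll4SI to control was 4.69 [6.95 to 8.26]. Adgrl3 (latrophilin 3, an adhesion receptor) was at 1.88 CPM in control, 0.73 in Mll3SI, 4.04 in Mll3/4SI and 45.0 in Mll4SI, a log2 ratio of 4.00 [4.41 to 4.77]. Here the Mll3/4SI library lay nearer to the control than to Mll4SI.

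Astn2 (astrotactin 2, a neuronal membrane protein) followed with 4.34 CPM in control and 64.1 CPM in Mll4SI (3.61), against 3.44 and 6.04 CPM in Mll3SI and Mll3/4SI. Ednra (the endothelin A receptor) was at 1.11 and 20.98 CPM (3.38), but an antisense gene that overlaps it, 4933431K23Rik, was at 0.19 and 3.79 CPM, and how strand was treated in counting is not given in the sources used here. Ugt8a, which makes the galactolipid of myelin, was at 2.62 and 30.6 CPM (3.13). Thbs1 (thrombospondin 1, a secreted matrix protein) was at 1.81 and 22.8 CPM (3.08), Arhgef26 at 3.56 and 31.3 CPM (2.83) and Sdc2 (the heparan sulphate proteoglycan syndecan 2) at 2.58 and 19.3 CPM (2.505). In Mll3/4SI, Ugt8a (14.0 CPM), Arhgef26 (14.1 CPM) and Sdc2 (13.2 CPM) stood between control and Mll4SI, and Thbs1 was at 3.93 CPM. These genes were spread over many cells: Epha5 UMIs were found in 3654 Mll4SI cells and in 21 control cells, and for none of the 117 higher genes did 5 cells hold over 50% of the Mll4SI UMIs.

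Known myeloid genes were 3 of the 12. Mmp8, the collagenase of the last neutrophil granules, was at 18.7 CPM in control, 8.77 in Mll3SI, 11.8 in Mll3/4SI and 99.6 in Mll4SI (2.36 [2.36 to 2.48]). Retnlg, a secreted resistin-like protein of mature neutrophils, was at 54.9, 55.5, 63.9 and 268 CPM in the same order (2.26 [2.25 to 2.32]). For both, Mll4SI was the only high library of the 4. Pira2, an activating immunoglobulin-like receptor, was at 2.68 and 17.9 CPM (2.36) and at 1.72 CPM in Mll3/4SI, and belongs to a family of near-identical copies whose reads counting could split. The noncoding gene 1700006J14Rik, in neither group, was at 8.46 CPM in control and 58.3 CPM in Mll4SI (2.65), against 6.84 and 88.6 CPM in Mll3SI and Mll3/4SI, and it lies on the opposite strand within Hmga2.

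**Figure D1:**
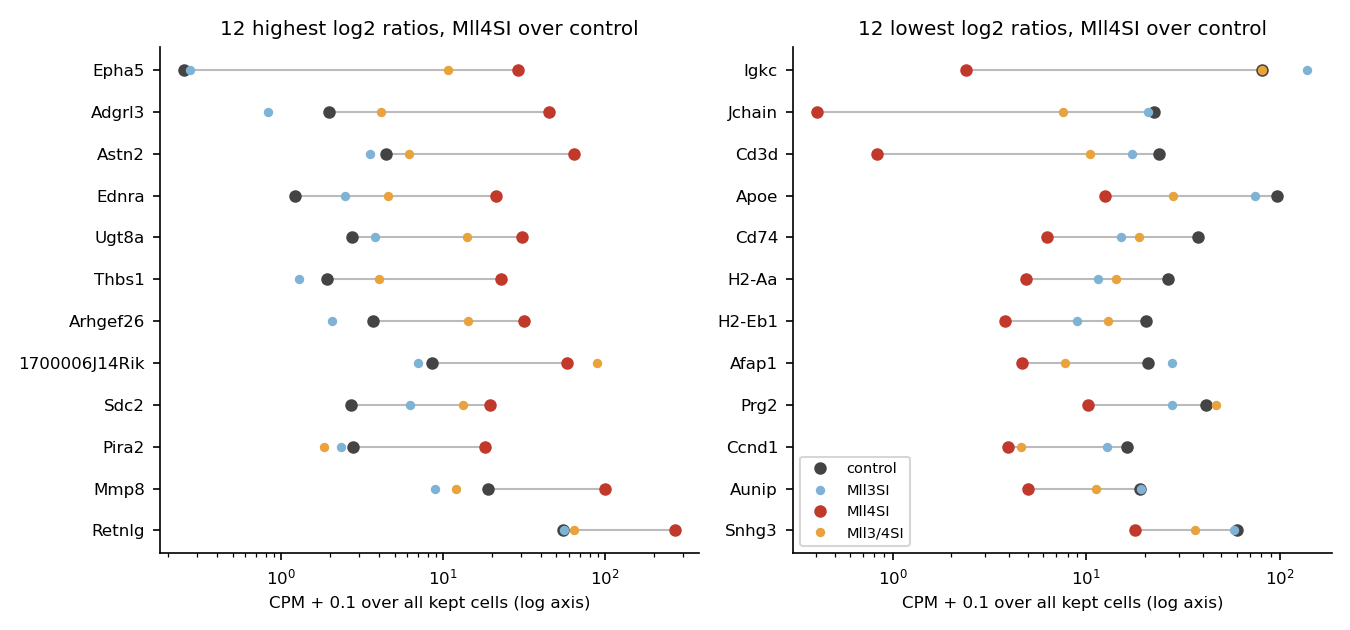
Level of the 12 genes with the highest and the 12 with the lowest log2 ratio of Mll4SI over control (mean of at least 10 CPM), in CPM + 0.1 over all kept cells on a log axis, with 1 point per library. Grey lines join control and Mll4SI, and Mll3SI and Mll3/4SI are shown beside them: Epha5 ran from 0.15 CPM in control to 28.6 CPM in Mll4SI, and Cd3d from 23.8 to 0.73 CPM.

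The late granule genes stood higher as a group. Of 22 genes, 20 were above 0, 4 were at least 2-fold higher (Mmp8, Retnlg, Mmp9 and Ifitm6) and 1 at least 2-fold lower. The list median was 0.51 against -0.13 for all genes, of which 30.9% stood above 0. Mmp9, the gelatinase of tertiary granules, was at 43.0 CPM in control and 115 CPM in Mll4SI (1.40). The abundant antimicrobial genes lay lower in the range: Camp (cathelicidin) at 29060 and 46477 CPM (0.68), Ngp at 11264 and 16545 CPM (0.55), Ltf (lactoferrin) at 3035 and 4130 CPM (0.44) and Lcn2 (lipocalin 2) at 4639 and 5896 CPM (0.35). Ly6g (-0.02), a neutrophil surface marker, stood apart from them. Padi4, the enzyme that citrullinates histones in neutrophils, went the other way, from 57.3 CPM in control to 20.98 CPM in Mll4SI (-1.41). It was at 38.8 CPM in Mll3SI and 21.3 CPM in Mll3/4SI.

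Of the 12 primary granule genes, which come earlier in neutrophil development, 10 lay below 0 over all cells and none was past 2-fold. The list median was -0.31 against -0.13 for all genes, of which 30.9% stood above 0. It was -0.17 under median-of-ratios scaling, and -0.08 and -0.48 in cells carrying Hashtag1 or Hashtag2 alone, antibody tags whose meaning the labels do not give. Elane (neutrophil elastase) was at 2952 CPM in control and 2481 CPM in Mll4SI, Mpo (myeloperoxidase) at 1765 and 1440 CPM, and Nkg7 had the lowest ratio (-0.75). All 5 subunit genes of the phagocyte NADPH oxidase lay above 0 (median 0.23), led by Ncf4 at 257 and 348 CPM. Among 13 myeloid cytokine and chemoattractant receptors 2 were at least 2-fold higher, Fpr2 (a formyl peptide receptor, 26.0 and 69.4 CPM, 1.38) and Cxcr2 (the receptor for neutrophil chemokines, 13.1 and 34.6 CPM, 1.33). The list median was 0.10, and Csf3r, the receptor for the growth factor G-CSF, was at 83.2 and 89.1 CPM (0.10). The 14 myeloid transcription factors held no 2-fold difference (median -0.09): Id2 was highest at 0.69 and Gfi1b lowest at -0.94, while Cebpe, needed for secondary granules, was at 306 and 339 CPM (0.15). The Monocyte list had a median of -0.05 and 1 of 14 measured genes past 2-fold higher.

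To see where these genes were made, cells were sorted into classes by joint clustering of all 4 libraries and by marker genes. Granulocyte-like cells made up 63.9% of control and 76.1% of Mll4SI cells, a ratio of 1.19 [1.17 to 1.22]. HSC/MPP-like cells (stem cells and multipotent progenitors) had a ratio of 0.517 [0.471 to 0.568], monocyte-like 0.834 [0.756 to 0.919], erythroid-like 0.361 [0.309 to 0.423], basophil/mast-like 0.456 [0.354 to 0.586], B-lymphoid-like 0.370 [0.255 to 0.531], T/NK-like 0.416 [0.251 to 0.679] and dendritic-like 0.261 [0.148 to 0.442]. Cells carrying 1 hashtag alone differed in some of these shares. T/NK-like cells were 0.287% of control and 0.257% of Mll4SI cells with Hashtag1 but 0.984% and 0.284% with Hashtag2. Monocyte-like cells were 9.69% and 9.56% with Hashtag1 and 9.42% and 7.26% with Hashtag2. Granulocyte-like cells of the 2 libraries fell into mostly separate clusters. Clusters 0, 1 and 5 held 18.4%, 12.8% and 13.3% of control cells but 0.956%, 1.58% and 0.420% of Mll4SI cells, and clusters 3, 9, 4 and 8 held 0.196%, 0.0699%, 3.43% and 1.33% of control cells but 22.1%, 13.6%, 14.96% and 12.7% of Mll4SI cells. Among the leading genes of the latter were Inhba and Astn2 (cluster 9), Ifitm6 and S100a6 (cluster 4), and Retnlg, Mmp8 and Mmp9 (cluster 8).

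A second view used the control cells alone. They were clustered by themselves into states, and each Mll4SI cell was given the state of its nearest control cells. State 9, led by Retnlg, Mmp8, S100a6 and Mmp9, held 4.77% of control cells and 27.2% of Mll4SI cells, a ratio of 5.71. State 9 was also larger in Mll4SI among the cells carrying either hashtag: 5.63% and 31.1% for Hashtag1, 4.08% and 26.8% for Hashtag2. Cells of that state had low depth in both libraries, with medians of 9468 and 7388.5 UMIs. States 7 and 8, led by Ctsg, Mpo and Elane, went from 7.77% and 5.87% in control to 4.51% and 2.64% in Mll4SI. Within state 9, Retnlg stood at 1356 CPM in control and 1306 CPM in Mll4SI, while Adgrl3 stood at 10.3 and 172 CPM and Epha5 at 0.62 and 27.5 CPM.

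**Figure D2:**
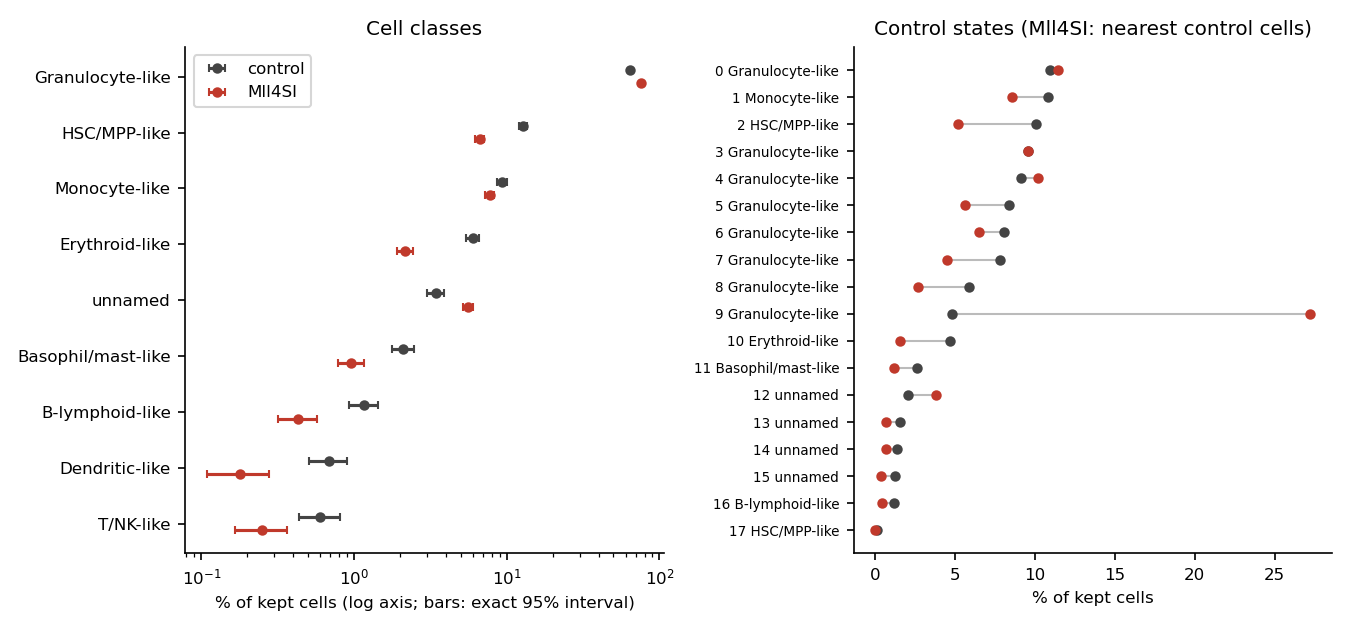
Share of kept cells in each class (left, log axis, with exact 95% intervals of counting error) and in each state defined on control cells (right, linear axis), for control (dark) and Mll4SI (red). State 9 held 4.77% of control and 27.2% of Mll4SI cells, and HSC/MPP-like cells 12.8% and 6.64%.

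The all-cell comparison was therefore repeated with the mix of cells held fixed. The CPM of each class, or of each of 17 control states, was averaged with the weights of the control library. A further state of 8 control cells had 0 Mll4SI cells and was left out. With classes held, 115 genes (0.965%) were higher and 86 (0.722%) lower, and with states held 104 (0.872%) and 74 (0.621%). Of the 117 genes higher over all cells, 96 stayed past 2-fold with classes held and 65 with states held, and all 117 kept their direction in both. Of the 175 lower genes, 81 and 61 stayed past 2-fold. Both sets were picked on sums over these same cells. The median over all genes moved from -0.13 to -0.06 and -0.00, and the share of genes above 0 from 30.9% to 38.2% and 48.7%.

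All 12 of the highest genes but Mmp8 stayed past 2-fold with states held. Epha5 was at 4.52, Adgrl3 at 3.15, Astn2 at 3.01, Ednra at 2.96, Ugt8a at 2.86, Sdc2 at 2.63, Arhgef26 at 2.47 and Thbs1 at 1.86. The noncoding 1700006J14Rik was at 2.48 and Pira2 at 1.55. Mmp8 went from 2.36 to 0.76, Retnlg from 2.26 to 1.05, Mmp9 from 1.40 to 0.09 and the late granule median from 0.51 to -0.03, with 11 of 22 genes on each side of 0. Padi4 was at -2.09 and Ly6g at -0.92 with states held. The primary granule median was 0.02 there, in place of -0.31. Of the 13 myeloid cytokine and chemoattractant receptors none was past 2-fold with states held (median -0.04, highest 0.66).

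**Figure D3:**
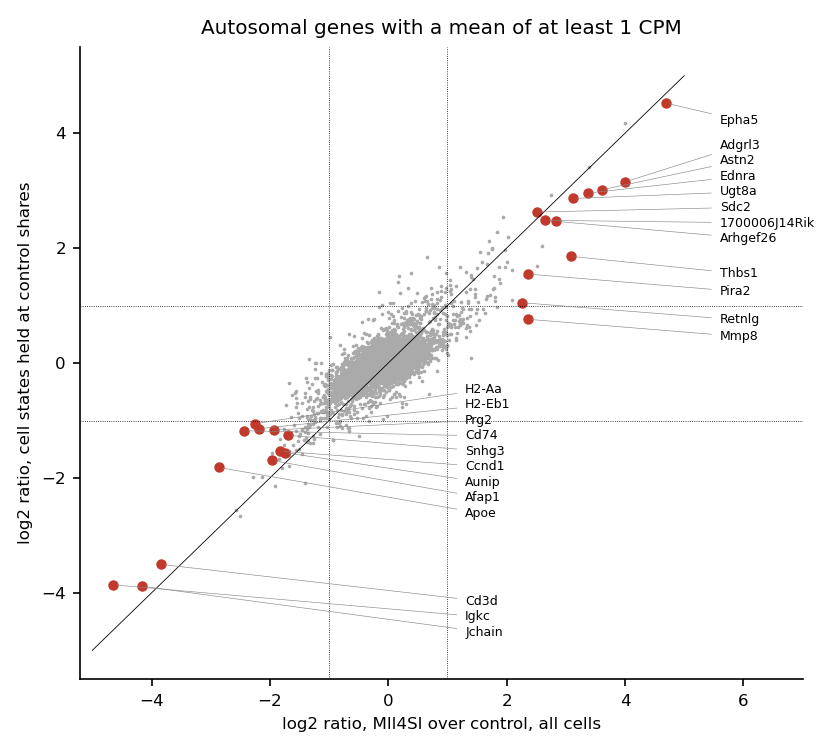
Log2 ratio of Mll4SI over control for each autosomal gene of at least 1 CPM, over all cells (horizontal) and with the shares of control states held (vertical). The solid line marks equal values, dotted lines a 2-fold difference, and red points the 24 genes at the ends of the all-cell ranking: Epha5 lies near the solid line at 4.69 and 4.52, and Mmp8 below it at 2.36 and 0.76.

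The level of Epha5 was 0.16 CPM in control and 37.7 CPM in Mll4SI in granulocyte-like cells, 0.14 and 11.8 CPM in HSC/MPP-like cells, 0 UMIs (a limit of 0.167 CPM) and 11.3 CPM in monocyte-like cells, and 0 UMIs (0.311 CPM) and 10.8 CPM in erythroid-like cells. To compare shares of cells at 1 depth, each cell was thinned to 3000 UMIs. The share with an Epha5 UMI was then 0.022% and 10.4% in granulocyte-like, 0.109% and 4.45% in HSC/MPP-like and 3.12% in monocyte-like cells of Mll4SI. In erythroid-like cells of Mll4SI, used for the level that free RNA in the droplets can give, it was 1.26% [0.260 to 3.62]. That interval rests on 3 of 239 cells. The monocyte-like share lies within it, and the HSC/MPP-like interval [3.09 to 6.20] overlaps it. Overlapping intervals do not show that the shares are equal, and the HSC/MPP-like share was the higher. Whether erythroid-like cells give a level of free RNA for Epha5 was not tested, nor was the part of free RNA in these shares. Unthinned shares in Mll4SI were 35.1%, 21.8%, 22.5% and 20.7% at median depths of 12084.5, 20159, 22834 and 17432.5 UMIs. Epha5 and Retnlg did not keep 1 ratio across classes of Mll4SI, with 4249 and 44298 UMIs in granulocyte-like, 192 and 239 in HSC/MPP-like, 231 and 96 in monocyte-like and 58 and 365 in erythroid-like cells.

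Adgrl3 was narrower, at 2.94 and 65.3 CPM in granulocyte-like cells but 2.84 CPM in HSC/MPP-like, 1.51 in monocyte-like and 7.83 in erythroid-like cells of Mll4SI. Its thinned share was 15.8% in granulocyte-like and 0.810% in HSC/MPP-like cells, and the latter is no higher than the 2.09% of erythroid-like cells. Sdc2 had thinned shares in Mll4SI of 4.80% in granulocyte-like, 6.21% in HSC/MPP-like, 4.05% in monocyte-like and 7.95% in erythroid-like cells, against 0.794%, 1.09%, 0.151% and 0.709% in control. The erythroid-like share of Sdc2 in Mll4SI was the highest of these, so it cannot serve as a level of free RNA for this gene. The part of free RNA in the Sdc2 shares was not tested. Retnlg had 12.2% and 42.6% in granulocyte-like cells and, in erythroid-like cells, 0.473% and 5.44%.

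Within granulocyte-like cells 123 genes (1.12%) were higher and 247 (2.25%) lower among 10988 tested, and 34.2% of all stood above 0, with the cells of the 2 libraries in the separate clusters named above. The 8 highest were Epha5 (5.05), Adgrl3 (4.07), 1700006J14Rik (4.04), Astn2 (3.62), Thbs1 (3.40), Ednra (3.37), Ugt8a (3.06) and Hmga2 (2.89). Hmga2, a chromatin protein of stem and embryonic cells, was at 2.37 CPM in control and 23.9 CPM in Mll4SI granulocyte-like cells and at 96.0 and 64.1 CPM in HSC/MPP-like cells. Because 1700006J14Rik lies on its opposite strand (3.41 and 71.6 CPM in granulocyte-like cells), reads of the pair may not have been told apart.

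The lowest genes there began with Cd3d, described below. Dmkn (dermokine, a secreted protein) was at 36.4 and 6.56 CPM, Afap1 (an actin-binding adaptor) at 25.2 and 4.74 CPM, and Dapk2 (a death-associated kinase of granulocytes) at 21.8 and 4.33 CPM. Snhg3, a noncoding host of small nucleolar RNAs, was at 36.5 and 8.90 CPM, Lgals1 (galectin 1) at 65.3 and 17.2 CPM and Tnfsf13 (the cytokine APRIL) at 46.9 and 14.3 CPM. E230032D23Rik (-1.72) overlaps 3 receptor genes of the Tnfrsf22 to Tnfrsf26 group on the other strand. Primary granule genes were lowest in this class, with a median of -0.94 and 5 of 12 at least 2-fold lower: Elane was at 3443 and 1798 CPM and Mpo at 1546 and 759.9 CPM. In HSC/MPP-like cells the same list had a median of 0.16, with Elane at 1038 and 1511 CPM, and in monocyte-like cells 0.07. The difference between classes was not tested.

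Within HSC/MPP-like cells 178 genes (1.47%) were higher and 131 (1.08%) lower among 12093 tested, with 49.9% above 0 and a median over all of them of -0.00. Agbl4, a carboxypeptidase that trims glutamate from tubulin, was at 0.53 CPM in control and 28.2 CPM in Mll4SI, against 0.28 and 0.37 CPM in granulocyte-like cells. Fcer1a, the IgE receptor chain of basophils and mast cells, was at 1.10 and 20.9 CPM, Sdc2 at 2.83 and 24.4 CPM, Xkr6 at 2.44 and 18.5 CPM and Ncam1 (a neural adhesion protein) at 5.22 and 31.4 CPM. St8sia6 (2.13), Gm12648 (2.04) and Scin (1.88) completed the 8 highest. The Mll3/4SI library was far above Mll3SI over all cells for Fcer1a (77.5 and 2.82 CPM), St8sia6 (39.9 and 3.21 CPM) and Scin (45.0 and 1.90 CPM). Of the 7 measured basophil and mast genes 3 were at least 2-fold higher, with a list median of 0.68.

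Among the lowest genes of HSC/MPP-like cells, Apoe (apolipoprotein E) was at 156 CPM in control and 28.8 CPM in Mll4SI, Ccnd1 (cyclin D1, which drives entry into the cell cycle) at 45.1 and 15.2 CPM and Tnfsf13 at 30.4 and 7.47 CPM. Wfdc17 (-1.68), Gm5111 (-1.63), 4933406J09Rik (-1.51) and Hivep3 (-1.49) were also among the 8. Prg2, the eosinophil major basic protein, was at 31.6 and 1.73 CPM, but 5 of the 19 control cells with a UMI held 97.9% of its UMIs. Late granule genes were higher in this class too, with a median of 1.37 and 14 of 22 at least 2-fold higher. They were also higher in erythroid-like cells, by a median of 1.09 with 12 of 22 at least 2-fold higher (297 genes, 2.47% of all tested, were higher there, 132, 1.1%, lower, and 52.6% above 0), and by 0.63 in monocyte-like cells with 4 of 20 past 2-fold (of all genes 132, 1.15%, were higher, 88, 0.769%, lower, and 46.6% above 0). In HSC/MPP-like cells S100a9 was at 1076 and 2799 CPM, against 88478 and 109796 CPM in granulocyte-like cells, and the part of free RNA in these levels was not tested.

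Of the genes lowest over all cells, Cd3d stood apart by where it was found. Cd3d encodes a chain of the T cell receptor complex. It was at 23.8 CPM in control, 17.1 in Mll3SI, 10.3 in Mll3/4SI and 0.73 in Mll4SI, a log2 ratio of -3.84 [-5.29 to -4.77], so Mll4SI was the only library near 0. In control 1891 cells carried a UMI, against 91 in Mll4SI, and the control UMIs lay in granulocyte-like cells (38.7 CPM in control, 0.64 CPM in Mll4SI) and most of all in state 9 (103.6 and 1.66 CPM). In T/NK-like cells, by contrast, Cd3d was at 128 CPM [from 47 UMIs] in control and 172 CPM [48 UMIs] in Mll4SI. The other chains of the complex were low in both libraries, Cd3g at 0.74 and 0.42 CPM and Cd3e at 0.12 and 0.11 CPM. Of the 11 genes of the T and NK list 4 were measured, all below 0, with Cd3d as the 1 gene past 2-fold and a median of -0.25. All genes had a median of -0.13 and 30.9% of them stood above 0, so the direction of so few members says little.

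Igkc and Jchain, the kappa light chain and the joining chain of antibodies, had the lowest ratios of the ranked genes (-4.65 and -4.17). In control 98.4% of the UMIs of each lay in 5 cells, and with doublets removed the ratios were 0.42 and 0.02. Apoe was at 96.9 CPM in control, 74.5 in Mll3SI, 28.1 in Mll3/4SI and 12.5 in Mll4SI (-2.86 [-3.02 to -2.89]). It was lower within erythroid-like (724 and 231 CPM), basophil/mast-like (834 and 119.5 CPM), granulocyte-like (7.13 and 1.08 CPM) and monocyte-like cells (6.51 and 1.27 CPM) as well as in HSC/MPP-like cells, and its ratio with states held was -1.82. Cyclin D1 was at 16.2 and 3.82 CPM over all cells (-1.83), Afap1 at 20.7 and 4.55 CPM (-1.97), Aunip (a centrosome protein) at 18.8 and 4.92 CPM (-1.74) and Snhg3 at 59.9 and 17.8 CPM (-1.70). Their ratios with states held were -1.53, -1.69, -1.56 and -1.26, and in Mll3/4SI over Mll3SI they were -1.31, -1.74, -0.72 and -0.66.

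MHC class II genes, which present antigen on dendritic and B cells, were lower: 4 of 7 measured members of the Dendritic and MHC class II list were past 2-fold (median -1.56). Cd74, the invariant chain, was at 37.8 CPM in control, 14.99 in Mll3SI, 18.7 in Mll3/4SI and 6.16 in Mll4SI (-2.44), with H2-Aa at -2.25, H2-Eb1 at -2.19 and H2-Ab1 at -1.56. The control library was the highest of the 4 for Cd74. Dendritic-like cells were 0.685% of control and 0.179% of Mll4SI cells, and within them Cd74 was at 6459 CPM in control and 2543 CPM in Mll4SI, in 49 and 20 cells. With states held the list median was -0.66.

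MHC class I genes, which present antigen in all nucleated cells, differed less, with ratios from -0.99 to -0.08. All genes had a median of -0.13, and 30.9% of them stood above 0. All 12 lay below 0 with none past 2-fold and a list median of -0.62, and under median-of-ratios scaling 11 of the 12 did, with Tapbp (-0.08) turning to 0.06. H2-K1 was at 673 CPM in control and 426 CPM in Mll4SI (-0.66), B2m (beta-2 microglobulin) at 816 and 607 CPM (-0.43), the immunoproteasome subunit Psmb8 at 249.6 and 157 CPM (-0.66) and Nlrc5, the transactivator of the class, at 14.6 and 8.58 CPM (-0.70). All 12 stayed below 0 with classes held (median -0.41), with states held (-0.29), in HSC/MPP-like (-0.26), granulocyte-like (-0.71) and erythroid-like cells (-0.30), and 10 of 12 in monocyte-like cells (-0.16). In granulocyte-like cells 2 of the 12 were at least 2-fold lower, and 34.2% of all genes stood above 0. In Mll3/4SI over Mll3SI 11 of the 12 lay above 0 (median 0.43). The 16 measured interferon genes, a related programme, had a median of -0.18 with none past 2-fold, against 1.76 with 12 of 18 at least 2-fold higher in Mll3/4SI over Mll3SI.

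Lists of the lymphoid and erythroid lineages, whose classes took smaller shares in Mll4SI, had medians below that of all genes over all cells and near 0 with states held. The Lymphoid priming and B list had 8 of 17 measured genes at least 2-fold lower and a median of -0.97, against -0.04 and none with states held. Dntt, an enzyme of lymphoid-primed progenitors, was at 20.04 and 6.95 CPM and Flt3, a receptor of multipotent and lymphoid progenitors, at 25.0 and 9.79 CPM, and these 2 stayed lowest with states held (-0.59 and -0.83) of the members above 10 CPM in control. Ebf1, the B-lineage factor, was at 48.1 and 19.9 CPM (-1.24) and at 0.00 with states held. The Erythroid list had 5 of 15 at least 2-fold lower and a median of -0.77, with Car1 and Car2 (carbonic anhydrases) at -1.33 and -1.39. With states held its median was -0.09, with 2 of 16 at least 2-fold higher and none lower. Medians for the Eosinophil list were -1.10 (3 of 5 lower) and -0.64, for the Basophil and mast list -0.40 (1 of 8 lower) and 0.49, and for the Megakaryocyte list -0.25 (0 of 10) and 0.15. No class was named for eosinophils or megakaryocytes. Within HSC/MPP-like cells the Lymphoid priming and B list had a median of -0.52, with 11 of 13 below 0 and 3 at least 2-fold lower. The Erythroid list had a median of -0.51 there, with 7 of 10 below 0 and 3 at least 2-fold lower. All genes had a median of -0.00 there, and 49.9% of them stood above 0. In granulocyte-like cells the 2 medians were -0.11 and -0.40, against -0.12 for all genes.

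The Stem list had a median of -0.43 over all cells, with 16 of 18 measured genes below 0 and 4 at least 2-fold lower. Of all genes 30.9% stood above 0 and 1.48% were at least 2-fold lower. With states held the median was 0.12, and in HSC/MPP-like cells -0.00 with 10 of 20 on each side. The 4 were Hoxa9, Mecom, Ly6a and Hoxa10, all of them transcription factors of stem cells except Ly6a, which encodes the surface protein Sca-1. Hoxa9 was at 15.6 CPM in control, 14.4 in Mll3SI, 5.80 in Mll3/4SI and 4.88 in Mll4SI (-1.501), which sets the libraries with Mll4 in their name below the others. Mecom was at 40.5, 46.1, 13.5 and 17.1 CPM in these libraries (-1.19). In HSC/MPP-like cells Hoxa9 was at -0.57 and Mecom at -0.42, and in granulocyte-like cells at -2.02 and -1.72.

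Other Hox genes, picked after their values were seen, lay beside these. On chromosome 6 Hoxa7 was at 14.0 and 6.396 CPM (-1.02) next to Hoxa9 and Hoxa10 (2.09 and 0.44 CPM). On chromosome 11 Hoxb4 was at 9.71 and 3.51 CPM (-1.25), Hoxb3 at 4.22 and 0.86 CPM (-1.49) and Hoxb2 at 2.60 and 0.12 CPM (-1.69), with the overlapping antisense gene Hoxb3os at -1.56. In Mll3/4SI over Mll3SI, Hoxb4, Hoxb3 and Hoxb2 were at -0.74, -1.23 and -2.55. With states held they were at -0.999, -1.23 and -1.60 in Mll4SI over control.

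No gene of the lists for broad cellular programmes was past 2-fold over all cells. All 77 measured cytosolic ribosomal protein genes lay below 0 over all cells (median -0.42), and all 77 did with classes held (-0.24) and within granulocyte-like cells (-0.64, against -0.12 for all genes there). Of all genes 30.9%, 38.2% and 34.2% stood above 0 in these views, in that order. With states held the median was -0.05 and in HSC/MPP-like cells -0.02. Over all cells respiratory chain genes had a median of -0.21 (76 of 78 below 0) and Cell cycle genes -0.19 (18 of 20 below 0). Replication-dependent histone genes had -0.09 (41 of 62 below 0) and Immediate early genes -0.00 (7 of 14). All genes had a median of -0.13, and 30.9% of them stood above 0. Within classes single members passed 2-fold: 1 respiratory chain gene (-1.89) and 1 histone gene (1.01) in HSC/MPP-like cells, 1 histone gene (-1.14) in granulocyte-like cells and 1 (1.08) in monocyte-like cells, and 2 Immediate early genes, up to 1.21, in erythroid-like cells. The list of Polycomb and enhancer regulators had a median of -0.04, with its 12 genes between -0.20 and 0.19.

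**Figure D4:**
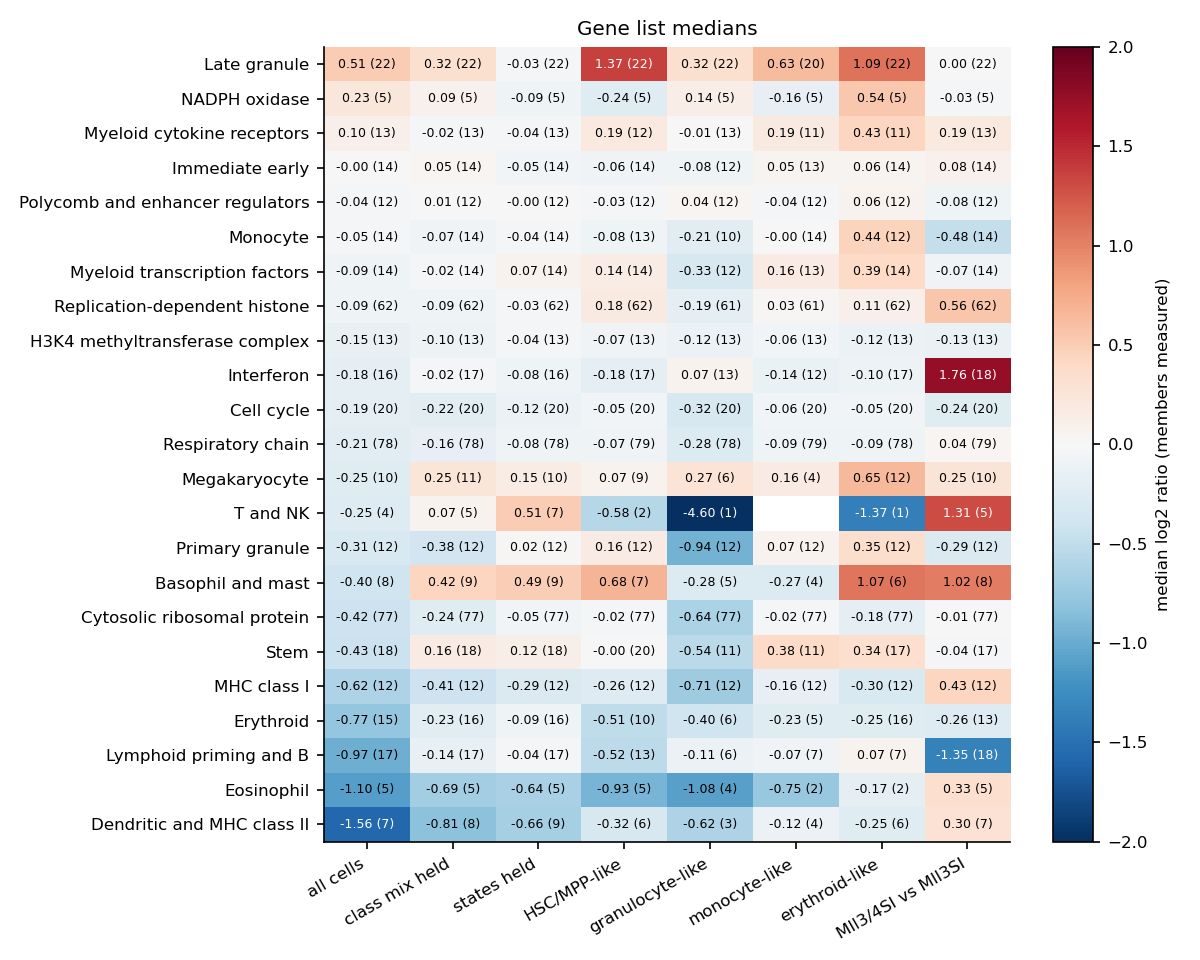
Median log2 ratio of each gene list, with the number of members measured in parentheses, for Mll4SI over control in 7 views and for Mll3/4SI over Mll3SI in the last column. Blue is lower and red higher: the MHC class I row is below 0 in all 7 views of Mll4SI over control, and the Late granule row runs from -0.03 with states held to 1.37 in HSC/MPP-like cells.

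The enzymes named by the groups showed small differences. Kmt2d (chromosome 15, 98831669 to 98871204, GRCm38) was at 41.7 CPM in control and 35.7 CPM in Mll4SI (-0.22 [-0.28 to -0.17]) and at 38.2 and 33.3 CPM in Mll3SI and Mll3/4SI. Kmt2c (chromosome 5, 25271798 to 25498783) was at 130.3 and 148 CPM (0.18). The labels do not say whether transcript levels should differ, and 3′ counts say nothing of the protein made. The 13 measured genes of the H3K4 methyltransferase complexes had a median of -0.15, close to the -0.13 of all genes, with none past 2-fold.

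Genes next to Kmt2d were then examined, after values had been seen. None of the 36 tested genes within 1 Mb was past 2-fold, but within 2 Mb 4 of 57 (7.02%) were at least 2-fold lower, against 164 of 11333 (1.45%) on other chromosomes. With states held 1 of the 57 (1.75%) was. The 4 belong to a run of 5 neighbouring tested genes between 1.80 and 2.26 Mb from Kmt2d: Cela1, Galnt6, I730030J21Rik, Slc4a8 and Acvrl1. Galnt6, which starts mucin-type sugar chains, was at 19.99 CPM in control against 6.63 in Mll4SI, and at 15.7 in Mll3SI against 6.18 in Mll3/4SI. Slc4a8, a bicarbonate transporter, was at 19.6, 7.20, 21.02 and 9.96 CPM in that order, and the noncoding I730030J21Rik at 15.2, 3.59, 13.7 and 4.65 CPM. Cela1 (5.79, 2.36, 5.34 and 3.37 CPM) and Acvrl1, a receptor of the TGF-beta family (3.42, 0.39, 1.65 and 0.42 CPM), were lower in the same 2 libraries, Mll4SI and Mll3/4SI. The log2 ratios of Mll4SI over control were -1.01, -1.46, -1.82, -1.33 and -1.67 from Cela1 to Acvrl1, and those of Mll3/4SI over Mll3SI -0.54, -1.22, -1.38, -1.01 and -0.90. With states held the ratios of Mll4SI over control were -0.72, -0.93, -1.31, -0.98 and -1.80, and in HSC/MPP-like cells -0.49, -0.77, -1.23, -0.69 and -0.33. Between Mll3SI and control none of the 57 genes within 2 Mb was past 2-fold. Why these genes were lower was not tested.

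**Figure D5:**
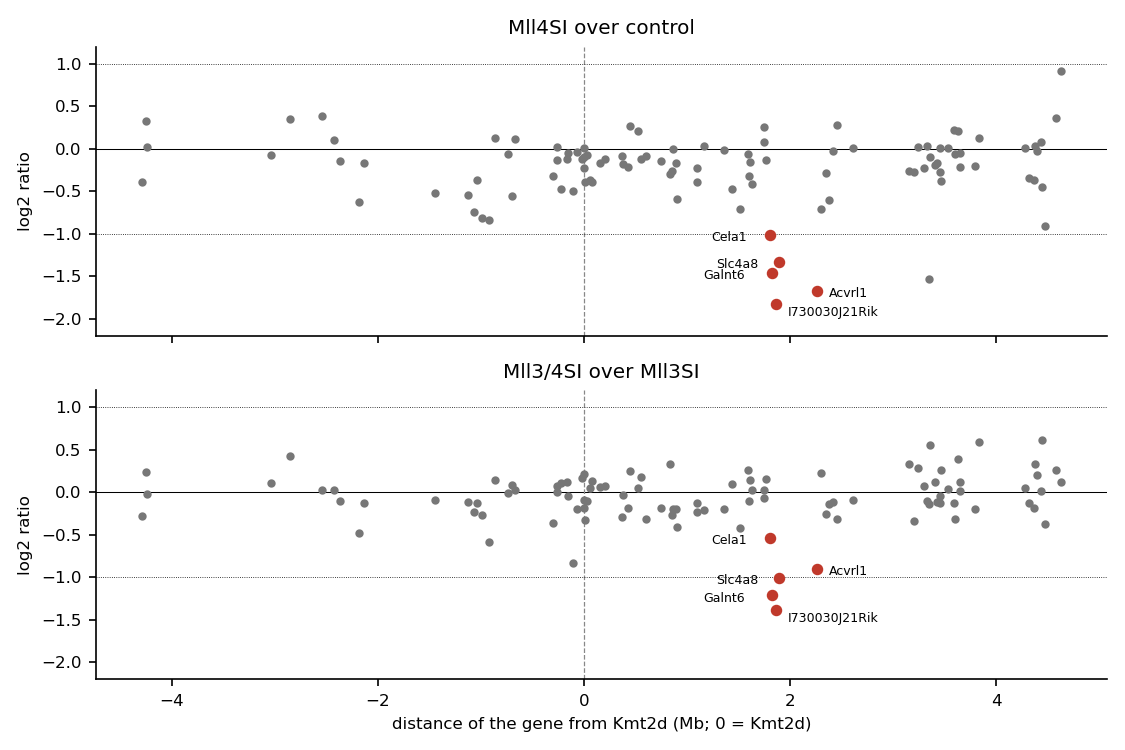
Log2 ratio of each tested gene within 5 Mb of Kmt2d against its distance from that gene, for Mll4SI over control (top) and Mll3/4SI over Mll3SI (bottom), 2 pairs that share no library. Dotted lines mark a 2-fold difference, and the 5 red genes between 1.80 and 2.26 Mb lie between -1.82 and -1.01 in the first pair and between -1.38 and -0.54 in the second.

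The pair Mll3/4SI and Mll3SI differs by the same name element and shares no library with the comparison above, but the 2 pairs are split alike in sex-linked transcripts. There 241 of 11916 genes (2.02%) were higher, 114 (0.957%) lower and 44.4% above 0. Of the 117 genes higher in Mll4SI over control 30 were at least 2-fold higher in that pair and 97 stood above 0, as did 44.1% of the 11804 genes tested over all cells. Of the 175 lower genes 49 were at least 2-fold lower, 143 stood below 0 (55.9% of the 11804 genes) and 5 were past 2-fold in the opposite direction. Epha5 (3.31), 1700006J14Rik (3.51), Arhgef26 (2.35), Ugt8a (1.68) and Adgrl3 (1.54) were among those higher in both. Mmp8 (0.39), Retnlg (0.20) and Astn2 (0.66) were at less than 2-fold there, and the late granule median was 0.00. Agbl4, Ncam1 and Gm12648, high in HSC/MPP-like cells of Mll4SI, were at 1.21, 0.36 and 1.02.

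Cells carrying Hashtag1 alone (3479 control, 5050 Mll4SI) and Hashtag2 alone (3355 and 4933) gave counts near each other, with 120 genes (1.01%) higher and 174 (1.47%) lower for Hashtag1 and 141 (1.2%) and 181 (1.54%) for Hashtag2, with 31.5% and 33.1% of genes above 0. All 117 higher and all 175 lower genes kept their direction in both. These genes were picked on sums that include the same cells, so this was largely fixed in advance. Epha5 was at 4.64 and 4.81 and Cd3d at -3.82 and -3.74. Arhgef26 (2.14 and 3.66) and Cd74 (-1.73 and -3.51) were, after Igkc and Jchain, among those that differed most, with H2-Eb1 at -1.38 and -3.35. List medians also differed between Hashtag1 and Hashtag2 cells: -0.78 and 0.18 for the Megakaryocyte list, -0.68 and -0.10 for the Stem list, -1.05 (9 genes lower) and -0.48 (2 lower) for the Lymphoid priming and B list and -1.07 and -0.34 for the Erythroid list. Without a statement of what the hashtags marked, these are parts of 1 library each and not replicates.

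Surface antibodies gave a second readout of the same cells, as shares of the UMIs of 13 antibodies. Of these 3 were at least 1.5-fold lower in Mll4SI over all cells and none higher. Over all cells none of the 3 was past 1.5-fold by the median over cells of the centred log2 ratio. On this scale, which weights cells equally, CD48 (-0.81) was the single antibody past it. Sca-1, the product of Ly6a, took 0.636% of antibody UMIs in control and 0.367% in Mll4SI (-0.79, or -0.22 on the centred scale and -0.62 with classes held). Its RNA was at 2.94 and 0.79 CPM. CD150, a stem cell marker encoded by Slamf1, took 0.386% and 0.214% (-0.85, or -0.19 on the centred scale and -0.37 with classes held), with RNA at 1.38 and 1.10 CPM. CD135, encoded by Flt3, took 0.087% and 0.050% (-0.79, or -0.38 on the centred scale and -0.65 with classes held). In HSC/MPP-like cells Sca-1 was at -1.30, CD135 at -0.80 and CD150 at -0.37. There they were at -0.50, -0.63 and -0.13 on the centred scale. CD48 took 27.3% and 21.8% (-0.32), with medians of 382 and 165 UMIs per cell. The myeloid antibodies leaned the other way: CD16/32 at 19.1% and 25.2% (0.40) and CD11b, encoded by Itgam (267 and 406 CPM), at 14.1% and 16.7% (0.25). RNA of the CD16/32 genes differed less, with Fcgr3 at 80.5 and 86.3 CPM (0.10) and Fcgr2b at 52.9 and 43.5 CPM (-0.28). Gr1 was at 28.9% and 27.3% (-0.08) and CD117, the protein product of Kit, at 6.82% and 6.07% (-0.17), and both turned on the centred scale, to 0.40 and 0.10. A share falls where another antibody takes more, so the signs of small values cannot be read alone.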

How the data were processed

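RNA and antibody-derived tags of single cells were sequenced on the 10x 3′ platform, and the deposited values are unnormalized UMI counts per feature and cell, made by the authors with Cell Ranger 7.1.0 on mm10, per the submitters' processing notes. Whether intronic reads were counted, and with which strand setting, is not given in the sources used here. The lowest barcode held 501 UMIs, and 22 kept barcodes occurred in both libraries.

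From these counts, UMIs were summed over the kept cells of each library and scaled to CPM of all gene UMIs (138592699 in control, 176828907 in Mll4SI). Genes on X and Y were left out of the comparison, and 11804 of 30336 autosomal genes reached a mean of 1 CPM. Positions were looked up in GENCODE M21, which held 32235 of the 32285 gene identifiers. Ratios had 1 CPM added, and exact intervals at 95% cover counting error only. Molecules are marked by UMIs, but cells of 1 library share their source.

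Genes named were the members of 23 lists, the genes of the antibody targets, the 12 highest and 12 lowest ratios of at least 10 CPM on average over all cells, and the 8 highest and lowest by the same rule in each class view. Members, lists and rules were chosen with earlier results of these data known. Cells of all 4 libraries were clustered together (scanpy 1.11.5, Leiden 0.10.2, 2000 variable genes, 30 components, 15 neighbours, resolution 1) without marker, list, sex-linked, mitochondrial, ribosomal or haemoglobin genes. A cluster was named from at least 3 markers with a log2 ratio of at least 1 and a lead of 2 over the next class. Doublets were kept, and an alternative removed 563 control and 1566 Mll4SI cells by their hashtags or Scrublet score. Cells carrying both hashtags were 3.98% and 10.5%. Thinning to 3000 UMIs left out at most 100 cells of a class. The ratios, their intervals and the ratios with the class mix held were tested on simulated data with counting error only. In the simulation of the class mix each class had the same profile in both libraries. The ratios with states held were not simulated.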

Additional observations from a re-analysis of the deposited data

Results flagged for a closer look

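Signals outside the autosomal comparison came from 5 X-linked genes. Xist had a log2 ratio of Mll4SI over control of 10.11 and its antisense gene Tsix of 5.21. Pcdh11x, a protocadherin of neurons, was at 0.19 CPM in control, 0.70 in Mll3SI and 1.77 in Mll3/4SI, against 33.1 in Mll4SI (4.84). Frmpd4, a scaffold protein of synapses, was at 3.82 CPM in control, 2.85 in Mll3SI, 10.4 in Mll3/4SI and 54.0 in Mll4SI (3.51). Aff2, a nuclear protein of the elongation machinery, was at 149.7, 156, 163 and 325 CPM in that order (1.11). Xist and Tsix were high in both libraries with Mll4 in their name. Pcdh11x and Aff2 were high in Mll4SI alone of the 4 libraries.

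Opposite signs between classes were seen for 2 results, and neither difference was tested. Igkc had a log2 ratio of -0.82 in HSC/MPP-like and 0.78 in granulocyte-like cells. The first value rests on 16 UMIs in 16 control cells and none in Mll4SI, with a control level of 0.77 CPM, below the 1 CPM asked for elsewhere. The primary granule list had a median of 0.16 in HSC/MPP-like and -0.94 in granulocyte-like cells, where the granulocyte-like cells of the 2 libraries lay in different clusters.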

How the results depend on the processing

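No paired analysis was possible because each group was 1 library, and no library could be left out. Of the counts of genes and antibodies and the shares of named classes under other settings 58 stayed within their bounds and 38 moved. Among single genes, list medians, single antibodies and the unnamed share 641 stayed, 383 moved and 4 changed direction. The all-cell counts were 117 higher and 175 lower among 11804 genes. They became 45 and 51 with a minimum of 10 CPM, which left 7837 genes tested. They were 24 and 19 with 10 CPM added, and 340 and 731 at 1.5-fold. Lower genes were 320 with 0.1 CPM added, 273 with each cell at equal weight, 86 with classes held and 74 with states held, and higher genes were 178 in HSC/MPP-like cells alone. With a minimum of 10 CPM, higher and lower genes were 35 and 25 of 7927 with classes held and 54 and 29 of 8371 in HSC/MPP-like cells. They were 49 and 104 of 7155 in granulocyte-like cells and 96 and 38 of 7919 in Mll3/4SI over Mll3SI. With 10 CPM added the counts were, in the same order, 18 and 9, 30 and 8, 28 and 27, and 60 and 23. With 0.1 CPM added, classes held gave 182 and 154, HSC/MPP-like cells 289 and 233, and lower genes were 508 in granulocyte-like cells and 199 in Mll3/4SI over Mll3SI. Removing doublets left 152 lower genes in granulocyte-like cells, and turned Igkc to 0.42 and Jchain to 0.018. In granulocyte-like cells alone Igkc was at 0.78. The erythroid-like share ratio was 0.290 at resolution 2, and the unnamed share ratio went from 1.62 to 0.899 by nearest control cells. Antibodies at least 1.5-fold higher were 1 in HSC/MPP-like cells, and those lower were 1 in granulocyte-like cells and, by the centred log2 ratio, 1 that was not among the 3 (CD48). The cause of these moves was not tested. Comparisons with the monocyte-like and erythroid-like classes, by position near Kmt2d and by UMIs in the 5 highest cells were added after seeing the data.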

Other observations

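The genes past 2-fold differed from all tested genes in length and level. Of the 117 higher genes 93 were protein-coding, the median gene length was 34.8 kb and 31.6% were longer than 100 kb, against 23.1 kb and 12.4% of all 11804 tested genes. Of the 175 lower genes 159 were protein-coding, the median length was 14.6 kb and 17.1% were longer than 100 kb. Among all 11804 tested genes 10731 were protein-coding. Both sets were low in level, with medians of 5.99 and 4.73 CPM against 20.5 CPM, so that a ratio with 1 CPM added understates many of them.

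Several genes outside the 12 highest and 12 lowest were picked after their values were seen. Ncmap, a membrane protein of myelinating cells, was at 0.17 CPM in control against 17.7 in Mll4SI, and at 0.13 in Mll3SI against 9.91 in Mll3/4SI (4.00 for Mll4SI over control and 3.27 for Mll3/4SI over Mll3SI). Its neighbour Rcan3 had a ratio of 1.09. The oligopeptide transporter Slc15a2 was at 5.09 CPM in control and 0.02 CPM in Mll4SI (-2.57), and at 3.60 and 3.502 CPM in Mll3SI and Mll3/4SI. Stfa1, a cystatin-like protease inhibitor with near-identical copies, was at 10.2 CPM in control, 3.18 in Mll3SI and 0.97 in Mll4SI, but 76.1 CPM in Mll3/4SI, so its ratios were -2.51 and 4.21 in the 2 pairs. The heat shock genes Hspa1a and Hspa1b, near-identical copies of each other, were at -1.39 and -1.85. Myeloid receptors with close relatives nearby stood higher together: Lilr4b at 10.3 and 34.3 CPM (1.64), Lilrb4a at 19.0 and 48.6 CPM (1.31), Clec4e at 14.1 and 32.3 CPM (1.14) and Fpr3, which overlaps Fpr2 in the annotation, at 2.58 and 7.46 CPM (1.24).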
